A study of Xenopus tropicalis with 9 samples.

Results

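Developmental transcription factors of 16 gene families were followed in the tail of the frog Xenopus tropicalis, which is lost at metamorphosis. The members were the genes that the authors' deposited tables of selected genes name as a SOX, forkhead (FOX), Krüppel-like (KLF), GATA, HOX, PAX, sine oculis-type (six4), T-box (TBX), RUNX, ETS, PBX, NFI, nuclear receptor (NR), PRRX, TWIST or SNAI gene, without klf9 and klf10, and with at least 10 counts over the 9 libraries. There were 104 such genes among the 19921 genes of the count table. Membership went by gene symbol, so relatives under other symbols, such as the T-box gene tbxt and the ETS gene spib, were not members. The groups were tail with the notochord removed at stage 63, whole tail at stage 63 and whole tail at stage 60, with 3 libraries each, all of wild-type animals. The study places stage 60 before and stage 63 during metamorphosis. Total RNA was sequenced, and the labels do not tell whether replicate libraries stem from different animals or from pools. The p-values therefore rest on variation among libraries that may be technical.

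These families divide the work of building and maintaining tissues. HOX proteins give cells their position along the body axis and bind DNA together with PBX proteins. Many SOX, forkhead and GATA proteins set cell lineages, and some of them open chromatin. RUNX proteins direct blood and skeletal cells, and SNAI, TWIST and PRRX proteins mark mesenchyme. Nuclear receptors such as the corticosteroid receptors switch genes in response to small ligands. Tail loss is driven by thyroid hormone, and corticosteroids are known to act with it in frog metamorphosis.

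The authors' deposited tables hold genes whose mean FPKM was more than 2 times higher in whole tail at stage 63 than at stage 60, or more than 2 times higher in tail with its notochord than in tail without it at stage 63. The stage table named 102 members, the notochord table alone named foxa2 and klf15.2, and foxi1, foxr1 and klf12 were in both. The difference between the stages, and the notochord difference of foxa2 and klf15.2, therefore chose the members and are given as descriptions. The other members were in the stage table whatever their notochord difference, which was tested where counts allowed. However, the same stage 63 whole-tail libraries entered the stage ratio. The notochord table also named foxi1, foxr1 and klf12 for the notochord difference, and of these foxi1 alone was tested. At the count limit, tbx20 with 16 counts, foxr1 with 19 and pax2 with 19 were just inside, and tbx22 and tbx4 with 7 each and gata4 and foxe3 with 6 each were just outside. In all, 7 names fell under the limit. Among 202 protein-coding symbols of the RefSeq annotation UCB_Xtro_10.0 that match the name rule, 109 were named in the tables. The rule also covers MEIS and TEAD names, and the tables held none of these.

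Library totals ran from 26928846 to 34836531 counts. The members together took 0.279 to 0.296% of the counts in notochord-removed tail at stage 63, 0.261 to 0.28% in whole tail at stage 63 and 0.0621 to 0.0648% at stage 60. Of 22 listed markers of notochord and cartilage, 10 were named in the authors' tables and measured. The 8 of them that were lower in notochord-removed than in whole tail were all named in the notochord table, which holds genes chosen for that difference, so their direction is a description and no check of the dissection. The 2 others, hapln1 and matn4, had log2 differences of 0.12 and 0.06 with no call. The notochord factor tbxt, in both tables, averaged 0.398 ± 0.17 CPM in notochord-removed tail and 4.08 ± 0.216 CPM in whole tail at stage 63 (SD, n = 3 each). Here CPM is the depth-scaled count after TMM scaling, which corrects for differences in library composition. Library 3 of the notochord-removed group stood apart from the other libraries of its group, with a chi-square per degree of freedom of 19.9 and 22.9 against 3.09 between libraries 1 and 2. Library 1 of stage 63 whole tail stood apart less, at 9.72 and 21.9 against 5.06 between libraries 2 and 3. Library 3 held the highest of the 3 values for 53.7% of the tested members in notochord-removed tail and for 48.4% in whole tail at stage 63, against 35.4% and 35.2% of all genes tested.

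The low-count filter kept 95 members for testing. The 9 that it left out had 16 to 69 counts in all, namely foxr1, hoxc5, klf12, klf15.2, nr1h5, pax2, sox14, tbx18 and tbx20. Between notochord-removed and whole tail, 15 of the 94 tested members of the stage table were called, against 25.6% of all genes tested and 23.8% of the genes of the stage table. Of these, 8 were higher and 7 lower in notochord-removed tail, 8.51% and 7.45%, against 8.40% and 15.4% of the stage table's genes and 14.5% and 11.1% of all genes tested. The 7 lower include foxi1, which the notochord table also names. A call is a Benjamini-Hochberg adjusted p under 0.05, taken over all genes tested, in the quasi-likelihood test of edgeR. Leaving out the notochord-removed library 3 gave 10 higher and 12 lower calls, foxa2 included, and leaving out the whole-tail library 1 gave 7 and 6.

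The difference between notochord-removed and whole tail was within 1.5-fold for 90 of the 94, and for 93.7% of all genes tested and 94.0% of the stage table's genes. Its median was 0.01 on the log2 scale, against -0.01 over all genes. The 3 libraries of each group did not overlap for 27 of the 94 members (28.7%), against 39.3% of all genes tested and 37.9% of the stage table's genes.

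**Figure D1:**
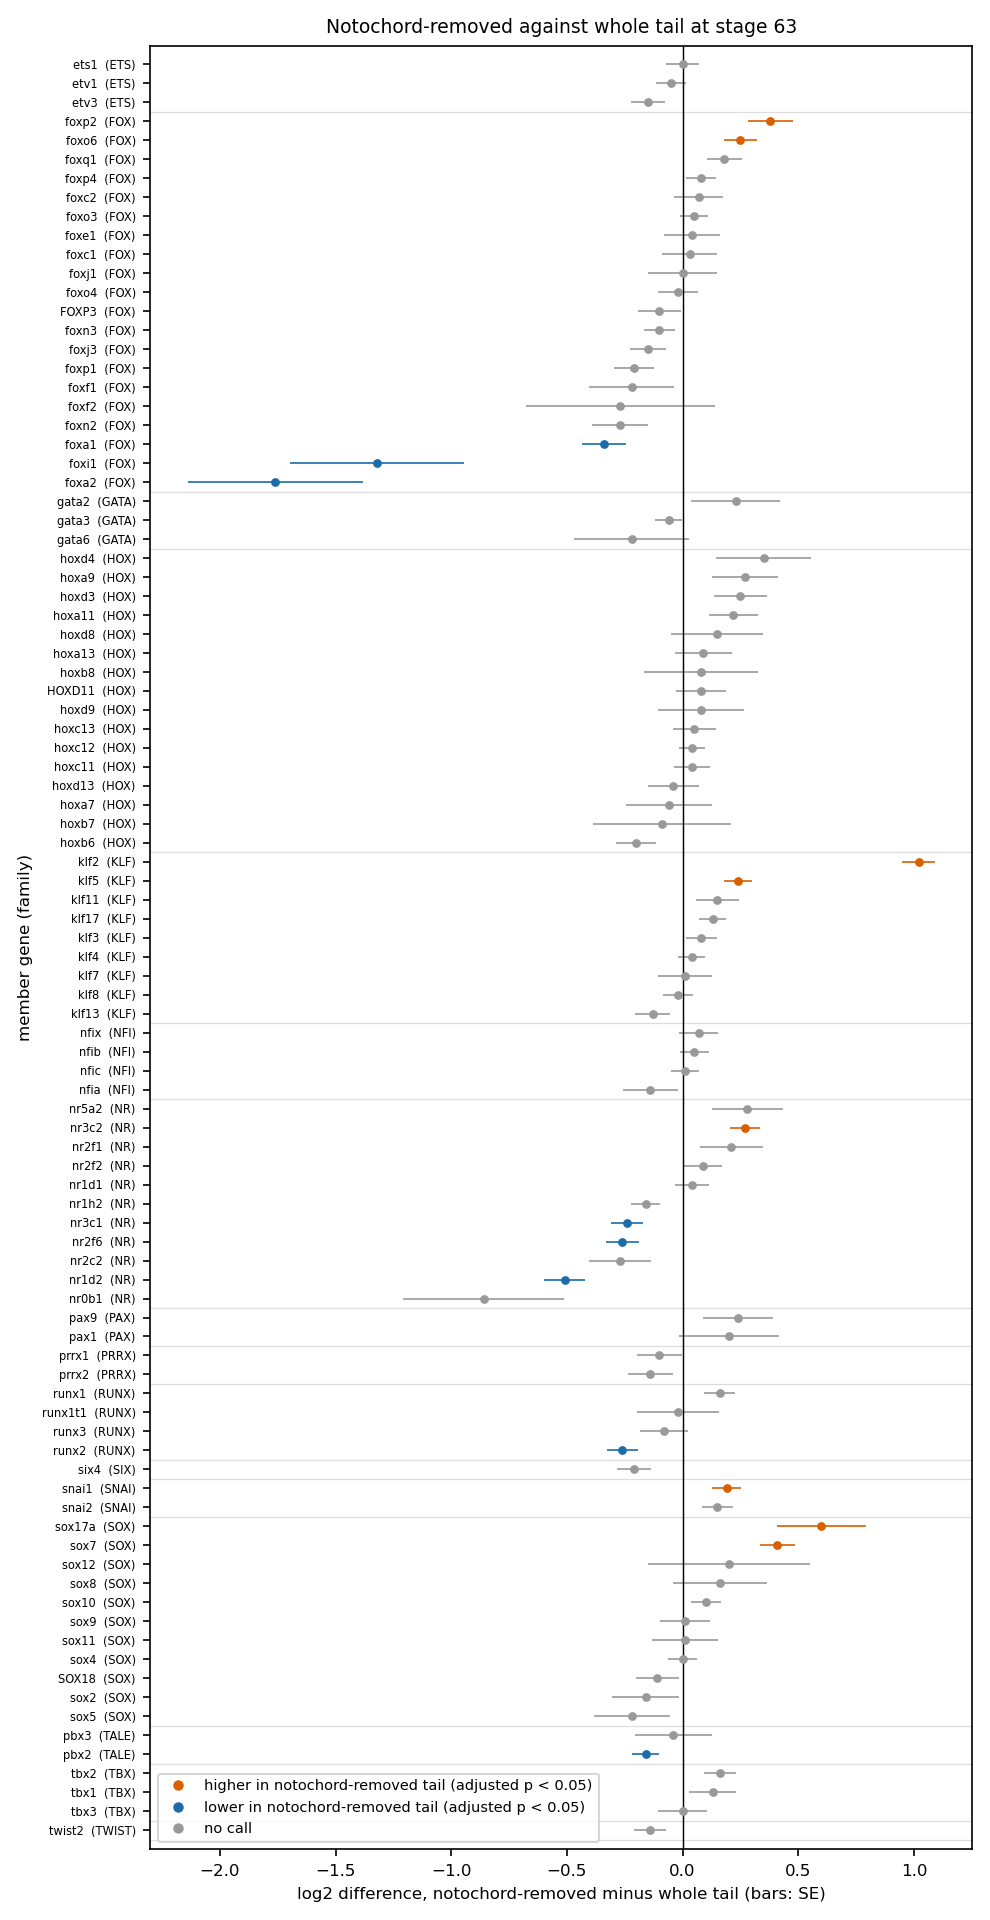
Log2 difference of the tested members reported by name, notochord-removed minus whole tail at stage 63, with bars of 1 standard error and colour for the direction of the call. Most points lie within 1.5-fold, klf2 stands apart on the right at 1.02, and foxi1 and foxa2 stand apart on the left at -1.32 and -1.76. The notochord table named both foxa2 and foxi1 for this difference.

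The member with the largest rise was klf2, a Krüppel-like factor that in mammals keeps vessel endothelium quiescent and responds to blood flow. It had 38.6, 38.7 and 43.7 CPM in notochord-removed tail, against 20.3, 19.4 and 19.8 CPM in whole tail at stage 63 and 14.3, 16.1 and 14.2 CPM at stage 60. Every notochord-removed library was above every other library. The rise was 2.03-fold, with a log2 difference of 1.02 ± 0.0696 (SE) and an adjusted p of 3.05e-09 in edgeR's quasi-likelihood test, and leaving out any library kept it between 0.96 and 1.06. Another called KLF gene was klf5, which supports epithelial renewal in mammals. It had 57.9, 58.6 and 60.3 CPM in notochord-removed tail, against 48.6, 48.7 and 52.4 CPM in whole tail at stage 63, with no overlap. Its log2 difference was 0.24 ± 0.0596 (edgeR adjusted p = 0.00625). The other 7 tested KLF genes had no call, with log2 differences between -0.13 for klf13 and 0.15 for klf11.

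SOX genes of the F group build vessel endothelium in vertebrates, and sox7 was higher without the notochord. For sox7 the values were 102, 105 and 85 CPM in notochord-removed tail, against 78.6, 70.1 and 70.1 CPM in whole tail at stage 63. The groups did not overlap, and the log2 difference was 0.41 ± 0.0755 (edgeR adjusted p = 0.000506). For sox17a, a relative also known from endoderm, the values were 5.21, 4.97 and 8.91 CPM in notochord-removed tail, against 3.52, 4.36 and 4.77 CPM in whole tail at stage 63. Its groups lay close together and its log2 difference of 0.60 ± 0.194 (edgeR adjusted p = 0.0356) rested on library 3 of the notochord-removed group, without which it was 0.27 with no call. Of 19 alternatives, 8 kept the sox17a call. The remaining F group gene, SOX18, had 6.48, 7.13 and 7.3 CPM in notochord-removed tail, against 7.53, 7.32 and 7.75 CPM in whole tail at stage 63, and its log2 difference of -0.11 ± 0.0927 missed the threshold (edgeR adjusted p = 0.409).

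Endothelium markers were counted beside these genes. Of 14 measured markers, 6 were higher in notochord-removed tail, none lower and 8 without a call. Of the stage table's genes, to which all 14 belong, 8.40% were higher, beside 14.5% of all genes tested. The receptor tek was higher by 0.62, the receptor tie1 by 0.45 and the junction cadherin cdh5 by 0.35 on the log2 scale. None of the 14 was at 0 in stage 63 tail. Their summed level was 615, 627 and 805 CPM in notochord-removed tail and 522, 598 and 633 CPM in whole tail at stage 63, so the groups overlapped. Library 3 of the notochord-removed group was the highest. In that library klf2 and sox17a were also highest of their group, whereas sox7 was lowest. Early response genes, which many cells switch on within minutes of a stimulus, were counted as well. This list was added after the data were seen, so its count is a description. Of 15 measured genes, all in the stage table, 13 were higher and none lower, beside the same 8.40% and 14.5% higher. The gene egr1 was up by 1.98 and dusp1 by 1.69 on the log2 scale. Their summed level was 2544.1 to 2599.9 CPM in notochord-removed tail and 1094.9 to 1160.2 CPM in whole tail at stage 63. The part of endothelium and of the early response in the klf2, sox7 and sox17a differences was not tested. In bulk tissue, fewer cells of a type and less RNA per cell cannot be told apart.

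Of 20 tested forkhead genes, 2 were higher in notochord-removed tail, 3 lower (foxa2 included) and 15 without a call. Of all genes tested 14.5% were higher and 11.1% lower, and of the stage table's genes 8.40% and 15.4%. Proteins of the FOXA group open closed chromatin in endoderm, and foxa2 is a known gene of the node, notochord and floor plate. For foxa2 the values were 0.0566, 0.309 and 0.438 CPM in notochord-removed tail, against 0.944, 1.15 and 0.775 CPM in whole tail at stage 63 and 0.799, 1.49 and 0.773 CPM at stage 60. The notochord-removed libraries were all below the others, on 2, 11 and 18 counts against 37, 40 and 33 counts in whole tail at stage 63. The log2 difference was -1.76 ± 0.379, a description since foxa2 was named in the tables for it, and it ranged from -2.34 to -1.32 when each library was left out in turn. The summed level of the measured notochord and cartilage markers was 59.1 to 74.6 CPM in notochord-removed tail and 142 to 149 CPM in whole tail at stage 63, with no marker at 0. Of these 10 markers, 8 were named in the same notochord table as foxa2, so this direction was set by how they were chosen, and their part in the foxa2 difference was not tested.

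The paralog foxa1 had 5.43, 6.32 and 5.28 CPM in notochord-removed tail, against 7.58, 6.97 and 6.98 CPM in whole tail at stage 63. It fell by 0.34 on the log2 scale (SE 0.0967, edgeR adjusted p = 0.0142), with no overlap, but the call was lost without library 1 of either group (highest adjusted p 0.0677). The difference was smaller than that of foxa2, but foxa2 was chosen for its difference and foxa1 was not, so nothing is read from this order. The other FOX gene that fell was foxi1, which directs ionocytes in Xenopus epidermis. Its values were 0.424, 0.421 and 0.122 CPM in notochord-removed tail, against 0.97, 0.746 and 0.658 CPM in whole tail at stage 63, a 2.5-fold lower level on 5 to 15 counts per library against 26 to 38. The log2 difference was -1.32 ± 0.376 (edgeR adjusted p = 0.0141), and without library 1 of stage 63 whole tail the call was lost (adjusted p = 0.0689, log2 difference -0.89). The authors' notochord table also names foxi1, for this same difference.

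The forkhead genes that rose were foxp2 and foxo6. For foxp2, a repressor best known from the brain, the values were 20.9, 20.7 and 15.9 CPM in notochord-removed tail, against 15.2, 13.9 and 14.9 CPM in whole tail at stage 63. Library 3 of the notochord-removed group lay nearest to whole tail, and the log2 difference was 0.38 ± 0.0964 (edgeR adjusted p = 0.00685). For foxo6, of the FOXO group that insulin signalling holds out of the nucleus, the values were 25.3, 24.1 and 23.7 CPM in notochord-removed tail, against 20.2, 21 and 20.4 CPM in whole tail at stage 63. The groups did not overlap, the log2 difference was 0.25 ± 0.0715 (edgeR adjusted p = 0.016), and the call was lost without library 1 of the notochord-removed group (adjusted p = 0.0598). The other FOXO genes, foxo3 and foxo4, had log2 differences of 0.05 ± 0.0607 and -0.02 ± 0.086 with no call.

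Among the nuclear receptors with an nr symbol, 3 of 11 tested fell and 1 rose. Of all genes tested 11.1% were lower and 14.5% higher, and of the stage table's genes 15.4% and 8.40%. Receptors with other symbols, such as thra and rxra, were listed with the partners and cofactors. The circadian repressor nr1d2 (Rev-erb beta) had 7.16, 7.36 and 6.81 CPM in notochord-removed tail, against 10.8, 9.38 and 10.1 CPM in whole tail at stage 63. The groups stood well apart, and the gene fell by 0.51 on the log2 scale (SE 0.0879, edgeR adjusted p = 0.000319), a call kept under all 19 alternatives. Its paralog nr1d1 had 19.8, 20 and 23.6 CPM in notochord-removed tail and 19.7, 20.7 and 21.3 CPM in whole tail at stage 63, with overlapping groups and no call (log2 difference 0.04 ± 0.0739).

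The corticosteroid receptors moved in opposite directions. For nr3c2, the mineralocorticoid receptor, the values were 37, 37.3 and 40.4 CPM in notochord-removed tail, against 29.7, 33.7 and 31.6 CPM in whole tail at stage 63. It rose by 0.27 on the log2 scale (SE 0.0661, edgeR adjusted p = 0.00518), with no overlap. For nr3c1, the glucocorticoid receptor, the values were 22.1, 21.2 and 19.8 CPM in notochord-removed tail, against 25.5, 25.1 and 24.1 CPM in whole tail at stage 63. It fell by 0.24 on the log2 scale (SE 0.0688, edgeR adjusted p = 0.0135), and the call was lost without library 1 or 2 of stage 63 whole tail (highest adjusted p 0.0547). The libraries of both groups were separate for each gene.

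The orphan receptor nr2f6 had 21.5, 23.3 and 23.7 CPM in notochord-removed tail, against 25.6, 28.6 and 27.9 CPM in whole tail at stage 63. It fell by 0.26 on the log2 scale (SE 0.0726, edgeR adjusted p = 0.0121), a call lost without library 1 of notochord-removed tail or library 2 of stage 63 whole tail (highest adjusted p 0.0724). Its relatives nr2f1 and nr2f2, the COUP transcription factors of vein and neural crest, had log2 differences of 0.21 ± 0.136 and 0.09 ± 0.0821 with no call. The oxysterol receptor nr1h2 had the highest level per length of this family and just missed the threshold, at 84, 87.7 and 93.9 CPM in notochord-removed tail against 101, 94.9 and 102 CPM in whole tail at stage 63 (log2 difference -0.16 ± 0.0616, edgeR adjusted p = 0.0582). It stayed without a call under 13 of 19 alternatives and was called lower under the rest, DESeq2 and limma-voom among them.

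Single members of 3 further families were called. The osteoblast and hypertrophic cartilage regulator runx2 had 24.3, 24.7 and 22.2 CPM in notochord-removed tail, against 26.8, 28.1 and 30.3 CPM in whole tail at stage 63. It fell by 0.26 on the log2 scale (SE 0.0685, edgeR adjusted p = 0.00871), and the call was lost only without library 3 of stage 63 whole tail (adjusted p = 0.0564). The blood stem cell regulator runx1 had a log2 difference of 0.16 ± 0.0686 and runx3 one of -0.08 ± 0.105, both with no call.

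The HOX partner pbx2 had 83.6, 86.2 and 85.2 CPM in notochord-removed tail, against 91.7, 95.7 and 97.3 CPM in whole tail at stage 63. Its fall by 0.16 on the log2 scale (SE 0.0572, edgeR adjusted p = 0.0479) was the smallest called, and 8 of 19 alternatives kept the call. The cadherin repressor snai1, which drives epithelial cells into a mesenchymal state, had 99.2, 102 and 99.2 CPM in notochord-removed tail, against 90.1, 85.9 and 86.3 CPM in whole tail at stage 63. It rose by 0.19 on the log2 scale (SE 0.0619, edgeR adjusted p = 0.0276), and 14 of 19 alternatives kept the call. Its relative snai2 had 32.7, 34.2 and 31.5 CPM in notochord-removed tail and 30.3, 29.3 and 29.2 CPM in whole tail at stage 63, groups that did not overlap but with an adjusted p of 0.12 in edgeR's quasi-likelihood test.

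**Figure D2:**
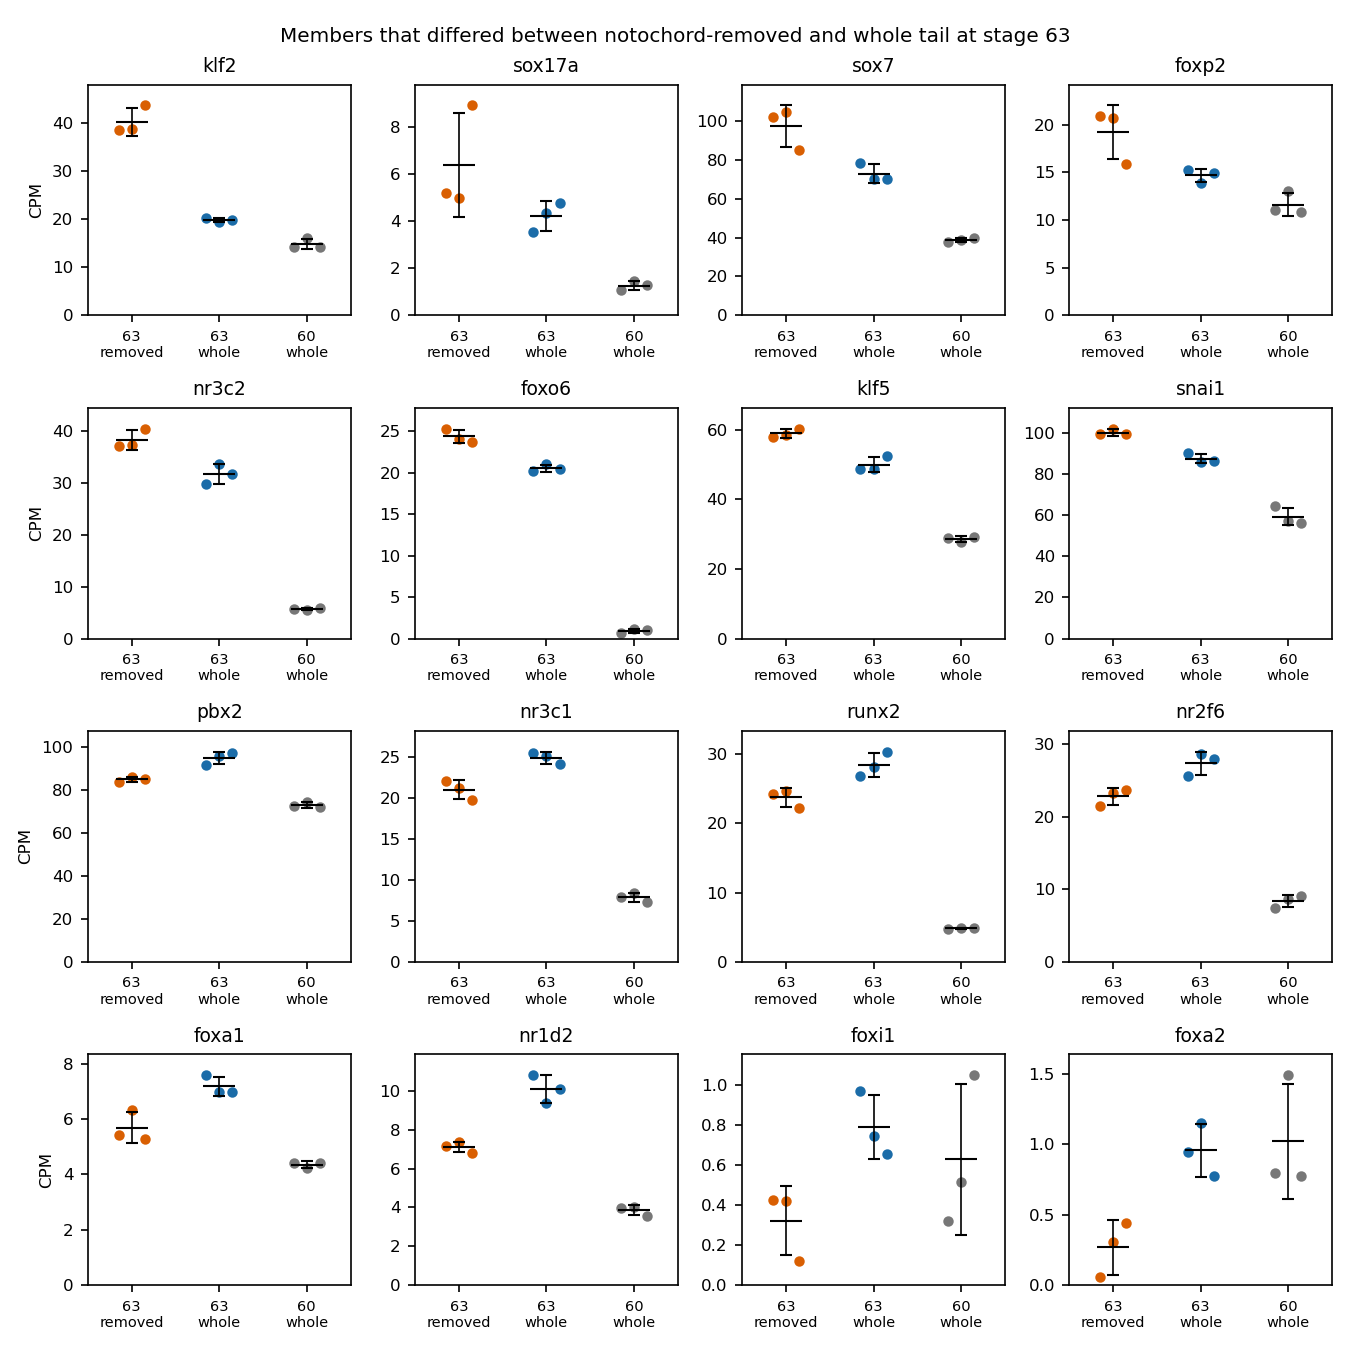
CPM of the members with a call between notochord-removed and whole tail at stage 63, and in whole tail at stage 60, each panel with its own linear axis from 0; points are libraries, the long line is the mean and the bars are 1 SD (n = 3). In klf2 the notochord-removed libraries at 38.6 to 43.7 CPM stand far above the others, whereas in pbx2 the groups are separated by a few CPM only; foxa2 is shown as a description.

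In 9 families edgeR's test called no member between notochord-removed and whole tail at stage 63. These were HOX (16 tested), NFI (4), ETS (3), GATA (3), TBX (3), PAX (2), PRRX (2), the single gene six4 and the single gene twist2. Relatives outside the name rule are not in these counts. For example, the T-box gene tbxt, which the notochord table names, and the ETS gene spib were called lower. Of all genes tested 25.6% were called, and 23.8% of the stage table's genes, so a lack of calls in the small families says little. Among the HOX genes the log2 difference ran from -0.20 for hoxb6 to 0.35 for hoxd4. The groups did not overlap for 1 of the 16, beside 39.3% of all genes tested and 37.9% of the stage table's genes. The most abundant of them, hoxc12, had 83.3, 85.9 and 82.6 CPM in notochord-removed tail and 82.4, 83.2 and 79.6 CPM in whole tail at stage 63 (log2 difference 0.04 ± 0.0566, edgeR adjusted p = 0.67). The NFI genes, which promote differentiation in many tissues, lay between -0.14 for nfia and 0.07 for nfix. The muscle regulator six4 came close to a call, with 21.9, 21.5 and 24 CPM in notochord-removed tail and 23.3, 26.9 and 27.7 CPM in whole tail at stage 63 (log2 difference -0.21 ± 0.0756, edgeR adjusted p = 0.0524). It stayed without a call under 14 of 19 alternatives and was called lower under the rest. The PAX genes of the sclerotome, which surrounds the notochord in the embryo, were pax1 and pax9, at 0.20 ± 0.216 and 0.24 ± 0.152. A missed threshold does not show that such a gene was at the same level in both groups.

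Low members gave little information on the notochord. For nr0b1, an orphan receptor known from the adrenal and gonad, the values were 0.198, 0.281 and 0.316 CPM in notochord-removed tail, against 0.408, 0.66 and 0.423 CPM in whole tail at stage 63, with a log2 difference of -0.86 ± 0.349 and no call (edgeR adjusted p = 0.0777). The remaining member chosen by the notochord table alone, klf15.2, had 3, 4 and 5 counts in notochord-removed tail, 13, 6 and 10 counts in whole tail at stage 63 and 6, 9 and 13 counts at stage 60. Its notochord-removed libraries were the lowest, and at so few counts the filter left it untested. For klf12, which both tables name, the counts were 3, 2 and 5 in notochord-removed tail, 8, 9 and 6 in whole tail at stage 63 and 2, 5 and 2 at stage 60.

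Between the stages nearly all members were higher at stage 63, the ratio by which they were chosen. Of the 94 tested members of the stage table, 88 passed the threshold upward (93.6%) and none downward, against 92.2% of all genes of that table. Over all genes tested, 83.8% passed, 43.0% upward and 40.8% downward. Of the 94, 72 passed and were at least 1.5-fold higher, against 72.6% of that table's genes. The median log2 difference was 1.17 over the members and 1.04 over the stage table. The members' share therefore says nothing of its own, and what follows describes how the members differed among themselves. The stage-table members that did not pass were foxi1, hoxa7, hoxb7, hoxd8, pax9 and runx1t1, and foxa2 of the notochord table did not pass either. With scaling by library size alone, as in the authors' FPKM, all of these stage-table members passed upward, and 94 members were higher. The passes of hoxa13, hoxb8, nr1d1 and sox5 were not kept under every alternative.

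Scaling matters for these values. The TMM factors were 1.18 to 1.25 in stage 63 tail and 0.672 to 0.69 at stage 60, whereas the authors' FPKM divides by the library total alone. For sox4 the authors' deposited table gives a ratio of 40.3, against 22.8-fold in the TMM-scaled fit, and for nfix it gives 44.5, against 25.1-fold. Scaling by library size moved the median stage difference of all genes by 0.82 on the log2 scale, and no member changed direction where it had a call.

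**Figure D3:**
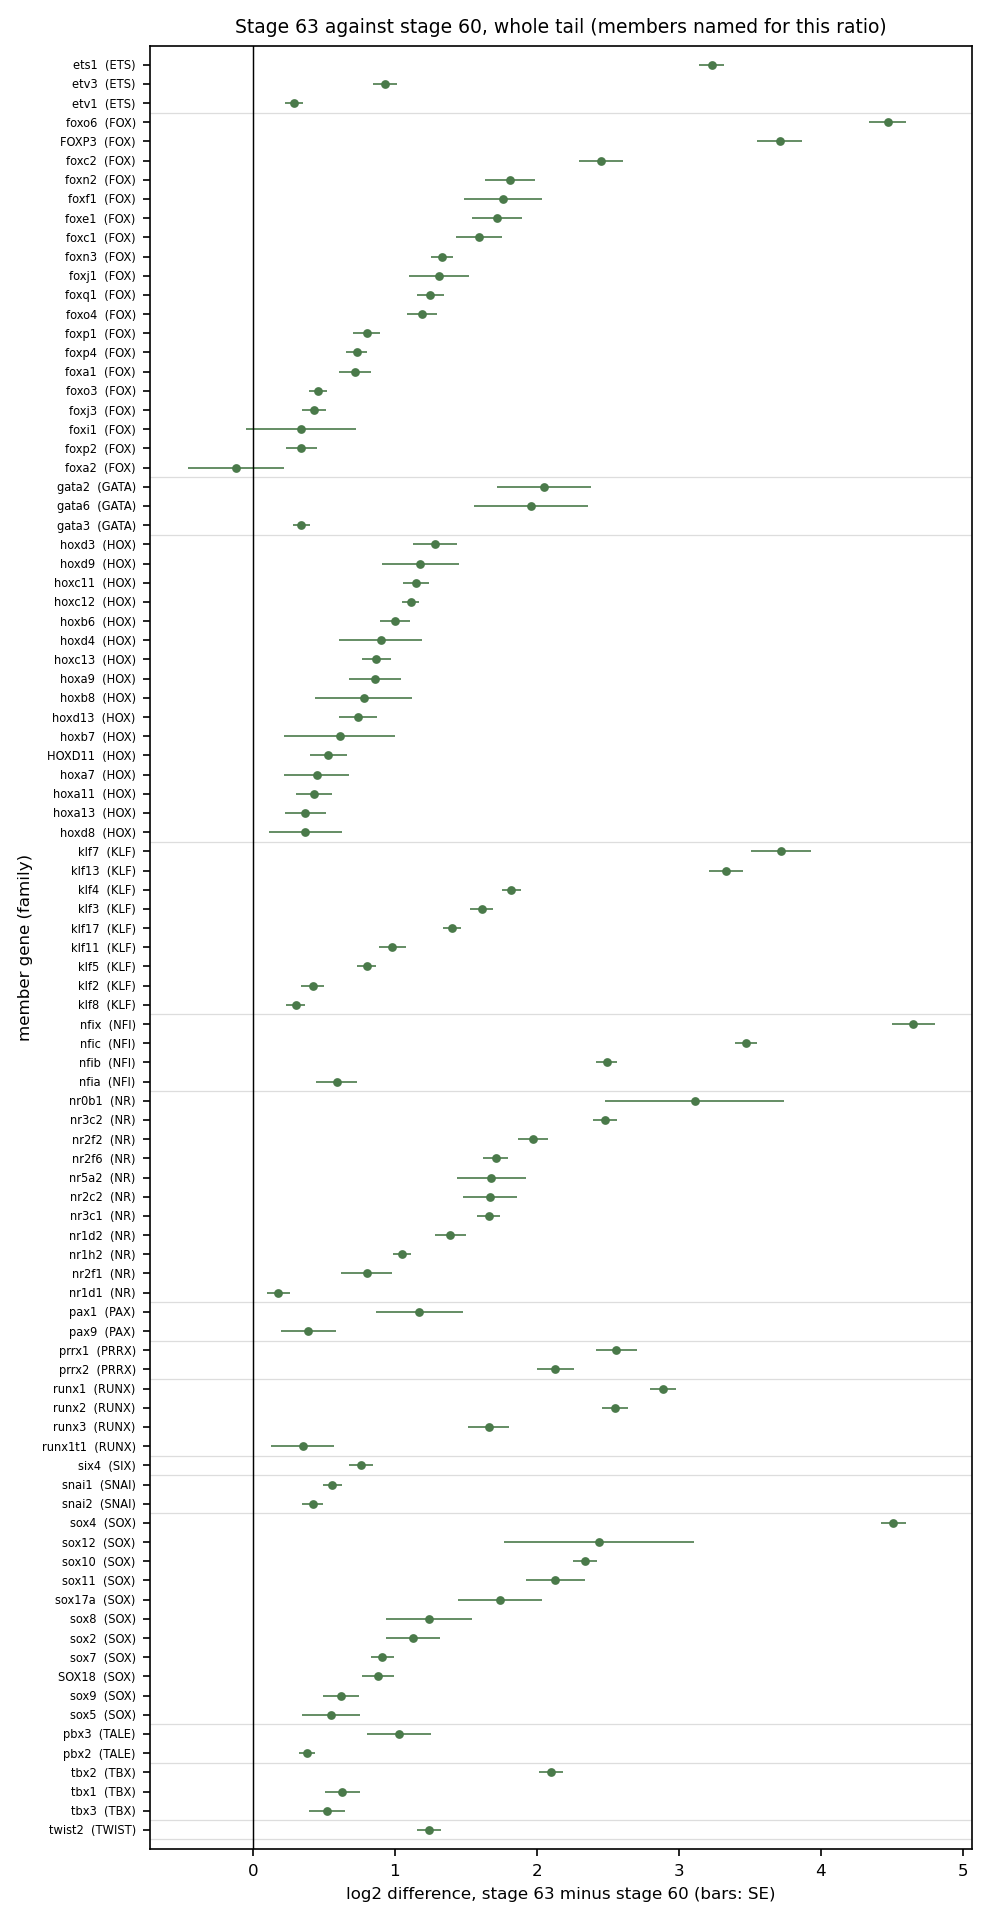
Log2 difference of the tested members reported by name, stage 63 minus stage 60 in whole tail, with bars of 1 standard error; foxf2 is left out because it had 0 counts at stage 60. All members shown except foxa2 were named in the tables for this ratio, so they lie to the right of 0. The points of nfix, sox4 and foxo6 lie above 4, while nr1d1 is at 0.18 and foxa2 at -0.12.

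The widest stage differences belonged to genes of several families. The SOXC gene sox4, which keeps progenitors of many lineages alive and is widely used in mesenchyme and nerve, had 138, 131 and 139 CPM in whole tail at stage 63, against 6.71, 5.92 and 5.25 CPM at stage 60. That was a log2 difference of 4.51 ± 0.086, and the notochord-removed libraries with 130, 136 and 140 CPM lay among the whole-tail ones. Its SOXC relative sox11 had 5.95, 5.71 and 6.08 CPM in whole tail at stage 63 against 0.905, 2.21 and 0.884 CPM at stage 60 (log2 difference 2.13 ± 0.21). The neural crest and glial gene sox10 was 2.34 ± 0.0847 higher on the log2 scale, while the cartilage gene sox9 was 0.62 ± 0.128 higher and its partner sox5 0.55 ± 0.201.

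Among the NFI genes 3 were far above stage 60. For nfix the values were 23.3, 25.5 and 25.2 CPM in whole tail at stage 63, against 1.12, 0.721 and 1.1 CPM at stage 60, a log2 difference of 4.65 ± 0.151. For nfic they were 99.8, 95.1 and 93.8 CPM in whole tail at stage 63, against 9.21, 8.29 and 8.45 CPM at stage 60, a log2 difference of 3.47 ± 0.0773. The paralog nfib followed with 2.49 ± 0.0727, and nfia with only 0.59 ± 0.144. Summed over the family, NFI genes had 232 to 233 CPM in whole tail at stage 63 and 30.9 to 31.5 CPM at stage 60, with 226 to 245 CPM in notochord-removed tail.

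The forkhead gene foxo6 had 20.2, 21 and 20.4 CPM in whole tail at stage 63, against 0.639, 1.13 and 0.994 CPM at stage 60, a log2 difference of 4.47 ± 0.131. Its FOXO relatives foxo4 and foxo3 were 1.19 ± 0.108 and 0.46 ± 0.0639 higher. FOXP3, named for the regulator of suppressive T cells in mammals, had 14.5, 16.2 and 15.5 CPM in whole tail at stage 63, against 1.44, 0.669 and 1.44 CPM at stage 60 (log2 difference 3.71 ± 0.159). The other FOXP genes differed by less, from 0.34 ± 0.109 for foxp2 to 0.80 ± 0.0982 for foxp1. The FOX gene with the highest level per length was foxq1, with 19.3, 17.5 and 18.5 CPM in whole tail at stage 63 against 7.46, 8.39 and 7.35 CPM at stage 60 (1.25 ± 0.0925). The mesenchymal and lymphatic gene foxc2 was 2.45 ± 0.155 higher and foxc1 1.59 ± 0.162 higher. The gut mesenchyme gene foxf2 had no counts in the 3 libraries of stage 60 and 34 counts in whole tail at stage 63, which makes it at least 5.47-fold higher, with 3 counts over the group as the floor. In the same way nr1h5, with 20 counts at stage 63 and none at stage 60, was at least 3.22-fold higher. For tbx20, with 6 counts at stage 63 and none at stage 60, the same floor gave 0.97-fold, so it shows no rise. These limits take the stage 63 counts as exact.

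The ETS, RUNX and GATA families hold regulators of blood, vessel and bone. The endothelial and lymphoid gene ets1 had 86.4, 81.8 and 82.8 CPM in whole tail at stage 63, against 8.74, 10.5 and 7.46 CPM at stage 60 (log2 difference 3.23 ± 0.0897). For runx1 the values were 36.9, 39.2 and 42.3 CPM in whole tail at stage 63, against 5.81, 4.89 and 5.3 CPM at stage 60 (log2 difference 2.89 ± 0.0916), and for runx2 the log2 difference was 2.55 ± 0.0907. The rule also takes in runx1t1, which encodes a corepressor and no RUNX protein, and it did not pass. The GATA genes gata2 and gata6, of blood and of heart and gut, were 2.05 ± 0.328 and 1.96 ± 0.4 higher at low levels. The T cell and epidermis gene gata3 was abundant at both stages, with 41.9, 41.1 and 42.9 CPM in whole tail at stage 63 and 33.1, 32.7 and 33.4 CPM at stage 60 (log2 difference 0.34 ± 0.0604).

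Markers of other cell types were measured as well, and their part in these values was not tested. The 14 measured markers of endothelium, 18 of leukocytes, 15 of epidermis and 20 of fibroblasts were all named through the stage table, which holds genes higher at stage 63, so the direction of their sums between the stages was set by that choice and is a description. No list had a marker at 0 in all stage 63 libraries. The summed endothelium level was 522 to 633 CPM in whole tail at stage 63 and 126 to 133 CPM at stage 60, and the leukocyte level was 1864.3 to 1929.2 CPM at stage 63 and 975 to 1021.2 CPM at stage 60. Epidermis stood at 5469.0 to 5561.2 CPM at stage 63 and 1584.9 to 1635.4 CPM at stage 60, and fibroblasts at 17522.4 to 19353.2 CPM and 4997.0 to 5252.3 CPM. Between notochord-removed and whole tail, 2 of 15 epidermis markers were higher and 2 lower. Of 18 leukocyte markers 4 were higher and 6 lower, and of 20 fibroblast markers 1 was higher and 2 lower. The shares were 8.40% higher and 15.4% lower among the stage table's genes, and 14.5% and 11.1% among all genes tested. Few markers of the remaining cell types were named in the tables (3 of 23 for muscle, 7 of 20 for nerve and glia, 2 of 13 for red cells and 2 of 19 for cycling cells), some of them through the notochord table, so nothing is read from these lists.

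Among the KLF genes, klf7 and klf13 led. The neuronal and fat cell regulator klf7 had 10, 9.18 and 8.41 CPM in whole tail at stage 63, against 0.692, 0.515 and 0.884 CPM at stage 60 (log2 difference 3.72 ± 0.213). For klf13 the values were 15.4, 14.3 and 15.7 CPM in whole tail at stage 63, against 1.6, 1.34 and 1.6 CPM at stage 60 (log2 difference 3.33 ± 0.121). The skin barrier gene klf4 was 1.82 ± 0.0685 higher on the log2 scale. The KLF gene with the highest level per length was klf11, a target of TGF-beta in mammals, with 151, 174 and 184 CPM in whole tail at stage 63 against 86.4, 86.9 and 84.4 CPM at stage 60 (log2 difference 0.98 ± 0.0949). The smallest difference was that of klf8, with 20.8, 22.1 and 22 CPM at stage 63 against 17.2, 17.6 and 18 CPM at stage 60 (0.30 ± 0.0685 on the log2 scale). The gene klf2, which led the notochord comparison, was 0.42 ± 0.0789 higher.

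The PRRX, TBX, TWIST and SNAI families hold regulators of mesenchyme. The limb and connective tissue gene prrx1 had 11.2, 11.5 and 12 CPM in whole tail at stage 63, against 2.08, 1.65 and 2.15 CPM at stage 60 (log2 difference 2.56 ± 0.145), and its paralog prrx2 was 2.13 ± 0.131 higher. The T-box repressor tbx2 had 37.9, 37.7 and 41 CPM in whole tail at stage 63, against 8.79, 9.32 and 9.17 CPM at stage 60. Its log2 difference was 2.10 ± 0.0848, against 0.63 ± 0.124 for tbx1 and 0.52 ± 0.127 for tbx3. The dermal gene twist2 was 1.24 ± 0.0814 higher. The SNAI genes were higher by 0.56 ± 0.0642 for snai1 and 0.42 ± 0.0731 for snai2.

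In the TMM-scaled fit, nuclear receptors ranged from a small difference to several-fold. The circadian repressor nr1d1 had the smallest called difference of all members, with 19.7, 20.7 and 21.3 CPM in whole tail at stage 63 and 18.3, 18.1 and 18.1 CPM at stage 60 (log2 difference 0.18 ± 0.0797). For nr1d1 the authors' deposited ratio was 2.003, at the limit of 2 by which the stage table was chosen, and 10 of 19 alternatives kept the call. Its paralog nr1d2 was 1.39 ± 0.108 higher. For nr3c2 the values were 29.7, 33.7 and 31.6 CPM in whole tail at stage 63, against 5.65, 5.41 and 5.97 CPM at stage 60 (log2 difference 2.48 ± 0.0871), while nr3c1 was 1.66 ± 0.0833 higher. Per length, nr3c2 stood at 13 ± 0.648 CPM per kb in notochord-removed tail, 10.8 ± 0.686 in whole tail at stage 63 and 1.93 ± 0.0954 at stage 60, and nr3c1 at 8.03 ± 0.455, 9.51 ± 0.269 and 3.00 ± 0.222 CPM per kb (SD, n = 3 each), so the order of these receptors differed between the stages.

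Other members with small stage differences came from several families. For members of the stage table, the authors' limit on the FPKM ratio set the low end of these differences. The ETS gene etv1 had 66.5, 69.2 and 71.3 CPM in whole tail at stage 63, against 53.4, 59.7 and 55.9 CPM at stage 60 (log2 difference 0.29 ± 0.0653). The most 5′ HOX gene of its cluster, hoxa13, had 3.7, 4.79 and 4.7 CPM at stage 63, against 3.52, 3.45 and 3.2 CPM at stage 60 (0.37 ± 0.147). For both genes the groups did not overlap. The sclerotome gene pax9 had 1.79, 1.84 and 2.02 CPM at stage 63, against 1.65, 1.03 and 1.66 CPM at stage 60 (0.39 ± 0.192), and runx1t1 had 1.23, 1.32 and 1.57 CPM against 1.07, 1.24 and 0.939 CPM (0.35 ± 0.221). For foxp2 they were 15.2, 13.9 and 14.9 CPM at stage 63 and 11, 13 and 10.8 CPM at stage 60. For pbx2 the values were 91.7, 95.7 and 97.3 CPM in whole tail at stage 63, against 72.6, 74.7 and 72 CPM at stage 60 (0.38 ± 0.0585).

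**Figure D4:**
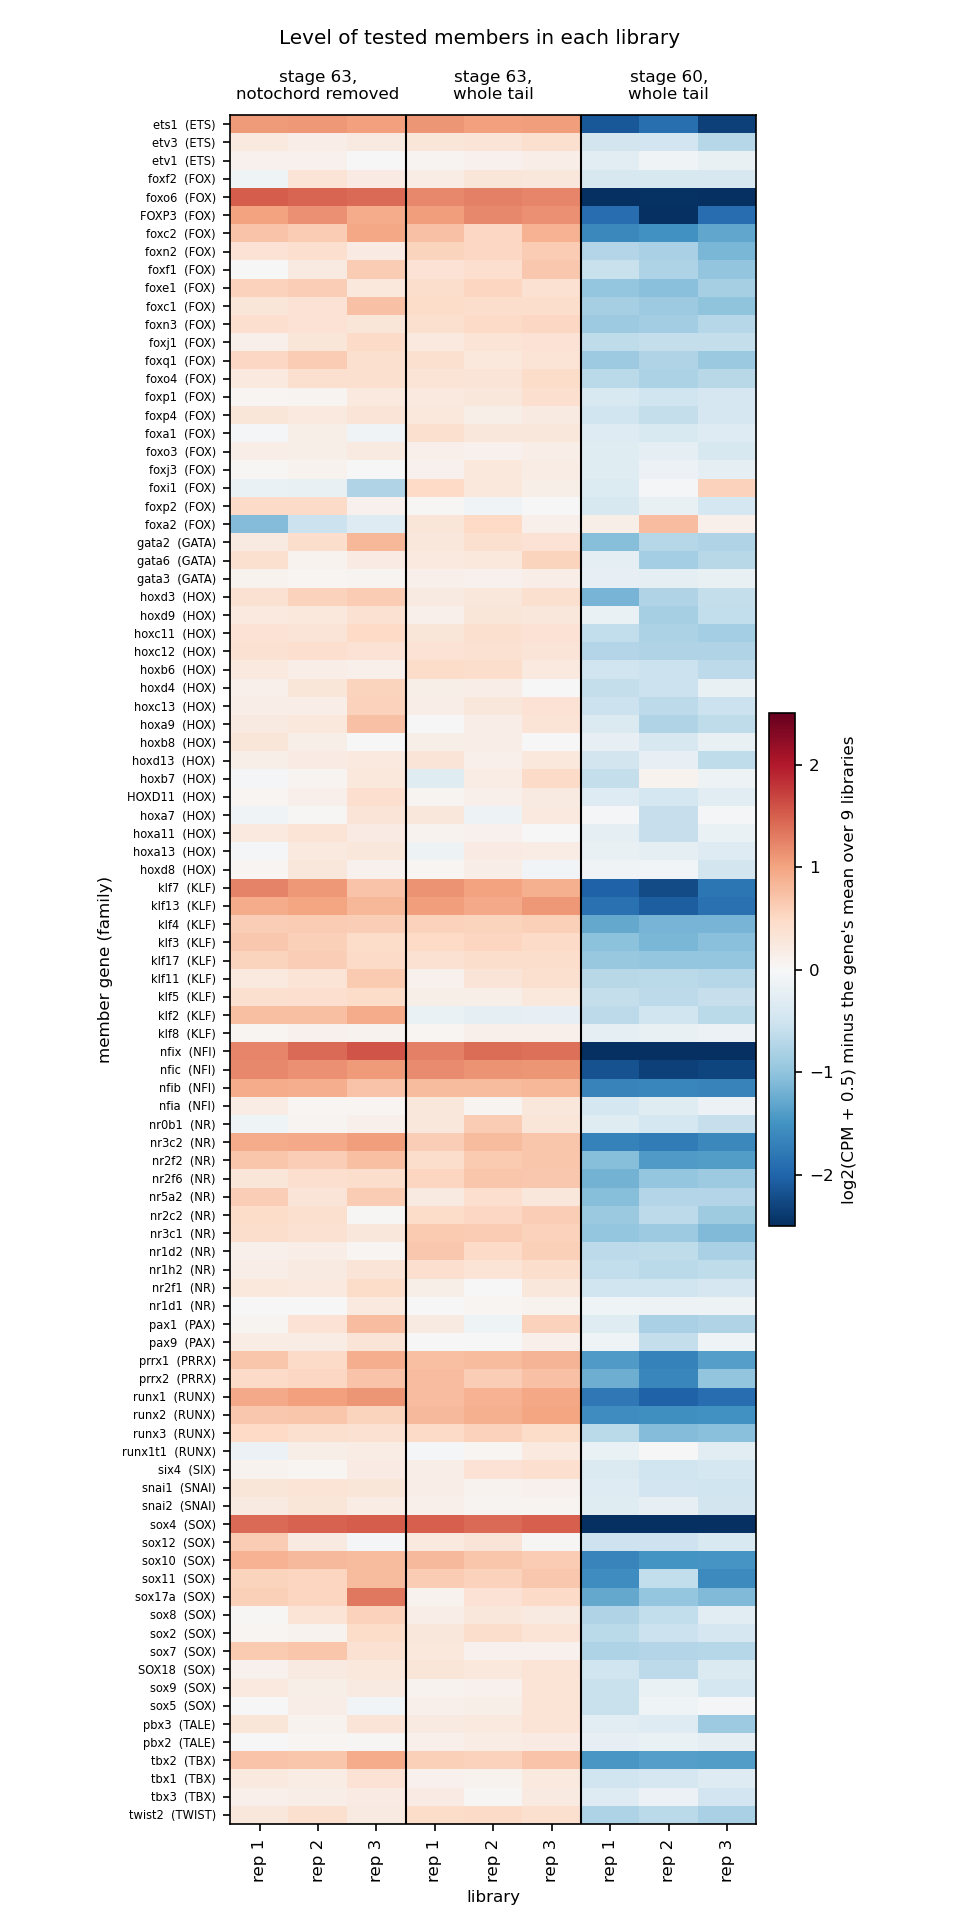
Heat map of the tested members reported by name in the 9 libraries, each gene as log2(CPM + 0.5) minus its mean over the libraries, with families grouped down the page. The 6 stage 63 libraries lie above the gene mean and the 3 stage 60 libraries below it for most members, and the notochord-removed and whole tail columns look alike except for genes such as klf2 and foxa2.

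HOX genes had modest stage differences. All 16 tested HOX genes lay between 0.37 and 1.28 on the log2 scale, with a median of 0.82. Of them 13 passed, beside 92.2% of the stage table's genes. The others, hoxa7, hoxb7 and hoxd8, passed with scaling by library size alone. The authors' limit of 2 on the FPKM ratio bounds the low end, where hoxa13 and hoxd8 had deposited ratios of 2.29 and 2.31. The largest were hoxd3 at 1.28 ± 0.154 and hoxd9 at 1.18 ± 0.269, and hoxc12 had 82.4, 83.2 and 79.6 CPM in whole tail at stage 63, against 38, 37.8 and 37.8 CPM at stage 60 (log2 difference 1.11 ± 0.0602). To compare levels between genes, CPM was divided by the annotated gene length in kb. On this scale the 9 genes of paralog groups 9 to 13, which pattern the posterior body, summed to 182, 187 and 199 in notochord-removed tail, 179, 185 and 184 in whole tail at stage 63 and 95.6, 90.3 and 92.5 at stage 60. The 8 genes of groups 3 to 8 summed to 17.5, 18.6 and 19.8 in notochord-removed tail, 18.7, 18.5 and 18.5 in whole tail at stage 63 and 10.3, 10 and 10.8 at stage 60. Among these 17 HOX members the posterior genes summed higher at both stages; the tables named 16 of the 36 HOX symbols in RefSeq, beside HOXD11, and the level of the rest is not given here. The gene hoxc12 alone had 106 CPM per kb in notochord-removed tail, 103 CPM per kb in whole tail at stage 63 and 47.8 CPM per kb at stage 60.

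**Figure D5:**
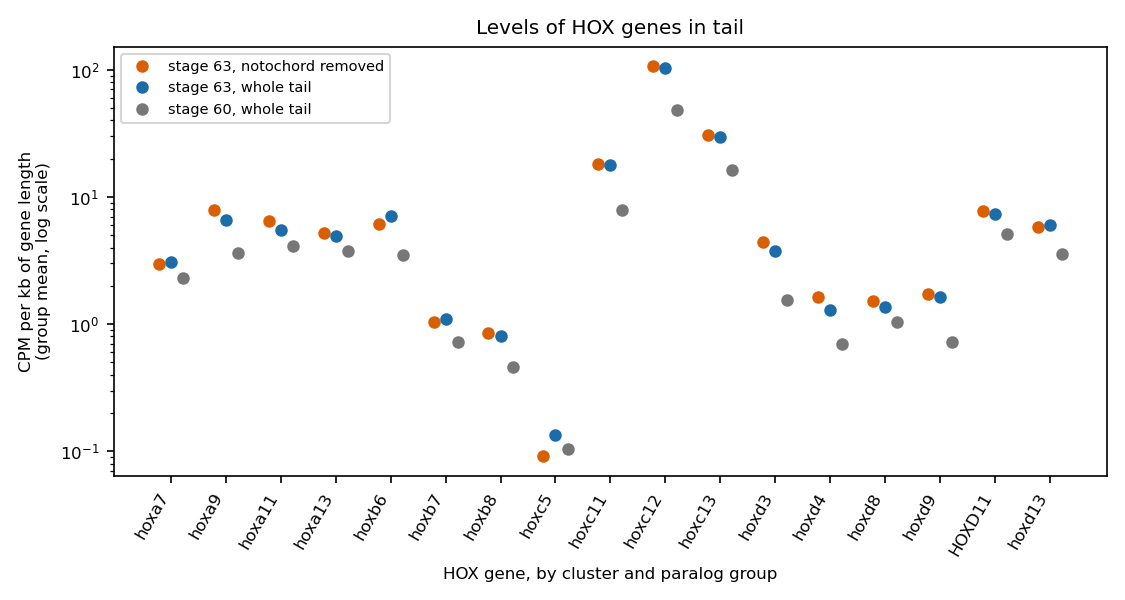
Level of each HOX member per length (CPM per kb of gene length, group means, logarithmic axis), ordered by cluster and paralog group. The genes hoxc12, hoxc13 and hoxc11 stand highest in every group, hoxc5 lowest, and the stage 63 points with and without the notochord lie close together for most genes.

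The order of the other members by level per length changed between the stages. In whole tail at stage 63 sox4 ranked first of the 104 with 123 CPM per kb, ahead of hoxc12, nfic and klf11, whereas at stage 60 sox4 ranked 26 with 5.41 CPM per kb, nfic ranked 25 and hoxc12 ranked first. The 10 highest members of notochord-removed and whole tail at stage 63 were the same 10 genes, and whole tail at stage 63 and stage 60 shared 6 of 10. Neighbours in the order such as twist2 with 45.9 ± 1.5 and snai1 with 45.7 ± 1.23 CPM per kb in whole tail at stage 63 (SD, n = 3 each) did not differ beyond their spread. In whole tail, 12 members exceeded 50 CPM at stage 63 and 4 at stage 60, and 18 stood below 1 CPM at stage 63 and 28 at stage 60. The coefficient of variation of a tested member between libraries had a median of 7.85% in notochord-removed tail, 5.85% in whole tail at stage 63 and 10.3% at stage 60.

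Partners and other regulators were counted in the same test. Of 43 measured partners and cofactors of these families, 2 were higher and 5 lower in notochord-removed tail, beside 8.40% and 15.4% of the stage table's genes, to which they all belong. The RUNX partner cbfb averaged 95.1 ± 13.4 CPM in notochord-removed tail and 118 ± 7.86 CPM in whole tail at stage 63 (SD, n = 3 each), and fell by 0.31 on the log2 scale (edgeR adjusted p = 0.0135), as did the receptor coactivator ncoa1 by 0.32 (adjusted p = 0.0201). The GATA cofactor zfpm2 rose by 0.98 ± 0.31 (edgeR adjusted p = 0.0257) at under 1 CPM. Of 67 measured other developmental transcription factors, 4 were higher and 8 lower. These also all belong to the stage table, with its shares of 8.40% and 15.4%, beside 14.5% and 11.1% of all genes tested. The Notch target hes4 rose by 0.69 ± 0.0604 (edgeR adjusted p = 1.17e-07), and the calcium-responsive nfatc3 fell by 0.45 and the leukocyte gene spib by 0.49 on the log2 scale (edgeR adjusted p = 0.000112 and 0.000263). Since all of them were named through the stage table, their direction between the stages is not counted.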

How the data were processed

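The values come from 9 total RNA libraries made with an Illumina TruSeq kit, per the labels' protocols, and the submitters' processing notes name STAR 2.5.4a with featureCounts 1.5.2. The genome build and the strand setting are not given in the sources used here, so antisense and overlapping genes cannot be told apart. Per the file headers, the deposited table of counts lists whole reads for each Ensembl gene, not normalized. The tables of genes selected by the authors give deposited group mean FPKM values and their ratio. That FPKM was checked against the counts: it equals counts divided by library total and gene length, to within 1%. A further deposited table of selected genes was not used here.

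Tests used edgeR 4.0.16 in R 4.3.3 (filterByExpr, TMM, robust quasi-likelihood fit) on all 9 libraries with group means only, and p-values were adjusted over all genes tested by Benjamini-Hochberg, with a threshold of 0.05. Differences are log2, notochord-removed minus whole tail and stage 63 minus stage 60. The SE of a log2 difference was derived from the test, as its absolute value divided by the square root of the F statistic. CPM was TMM-scaled, and level per length used the annotated length. That length was a multiple of 3 for 67 of 104 members and for 65.8% of all genes. It may be coding length alone for some members and hold further sequence for others, and the order by level per length depends on this. Of the alternatives, DESeq2 1.42.0 and voom in limma 3.58.1 replaced the test. Pairs of libraries of a group differed by more than sampling noise, so no library was counted with another. Paralogs with close sequence, such as the sox17 genes, may share reads.

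The members and gene lists were chosen with earlier results of these data known. Per-library values are given for called members whose groups did not overlap and whose higher group reached 1 CPM (10 in each direction at most), for the 10 largest and 10 smallest stage differences at that level, for the member of each family with the highest level per length and for members found only in the notochord table; foxi1, nr0b1, klf12, snai2, SOX18, nr1d1, six4 and sox11 were added after their values were seen. One member enters the counts but is not reported here by name. No sequence is printed, since no table here holds one.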

Additional observations from a re-analysis of the deposited data

How the results depend on the processing

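Over 19 alternatives no called member changed direction. Between notochord-removed and whole tail, 5 of the 8 higher calls, 2 of the 8 lower calls (foxa2 included) and 71 of the 79 members with no call kept their side under all of them. At an adjusted p under 0.01 in edgeR's test, 5 members were higher and 3 lower, and over all genes 1281 were higher and 789 lower, against 2043 and 1570. Leaving out each library in turn gave 6 to 10 higher and 5 to 12 lower members, and 1490 to 2484 higher and 991 to 1939 lower genes. The lowest counts, 5 members and 991 genes lower, came without library 2 of stage 63 whole tail, and 5 members were also lower without library 1 of notochord-removed tail. Between the stages, the left-out fits gave 85 to 89 higher and 0 to 1 lower members, and 5893 to 6229 higher and 5612 to 5901 lower genes. The 1 lower member there, and the 1 lower with no filter on low counts, was klf15.2. Scaling by library size alone gave 9501 higher and 2821 lower genes between the stages, against 6072 and 5758; it moved the median of all genes by 0.82 on the log2 scale. The cause of the other changes was not tested.

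The labels give the groups the same library numbers, but nothing says that a number marks a shared source, and same-numbered libraries did not deviate together throughout: the correlations between notochord-removed and whole tail at stage 63 were 0.366, -0.0737 and 0.427, and those with stage 60 lay between -0.0672 and 0.0406. With a replicate block 8 members were higher and 11 lower without the notochord, as were 2253 and 1951 genes, and 88 members were higher and 0 lower at stage 63, as were 6116 and 5815 genes.

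Depth limited the low members: 9 had too few counts to test, and klf12, foxr1 and klf15.2 rest on 0 to 13 counts per library.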

Other observations

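The gene named hoxb7 in the files lies on scaffold GL172692.1 at 1430023 to 1431435, 6627 bases from hoxa7 and beside hoxa9, hoxa11 and hoxa13, whereas hoxb6 and hoxb8 lie together on GL172970.1, so its name and its place disagree. Its level was 0.622, 0.702 and 0.876 CPM in notochord-removed tail, 0.434, 0.803 and 1.1 CPM in whole tail at stage 63 and 0.266, 0.721 and 0.552 CPM at stage 60. The forkhead genes foxc1, foxf2 and foxq1 are neighbours on GL172731.1, with 88251 and 70273 bases between them. Their log2 differences between notochord-removed and whole tail were 0.03, -0.27 and 0.18, all with no call in edgeR's test.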
